A study of Mus musculus with 2 samples.

Results

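Mir15a, Mir15b, Mir195a and Mir497 are miRNA genes whose main mature products begin with the same seed, the bases with which a miRNA finds its target mRNAs. They were taken by their symbols in the GENCODE M21 annotation, 4 of the 2202 miRNA genes counted, and all 4 were detected (at least 10 reads in both libraries), as were 377 genes in all. The symbols were chosen by knowledge of the family and of 2 measured values, the level of each gene and its ratio between the libraries, so both are given here as a description, with no test. The RNA came from adrenal gland tissue of female mice aged 4 days, of the strain B6CASTF1/J (hybrids of C57BL/6J and CAST/EiJ), with no treatment or genetic change in the labels. The series held 1 group of 2 libraries, biological replicates 1 and 2, described as different females but carrying 1 donor identifier. With no other group, what can be set side by side is the level of each gene within the tissue and the spread between these 2 libraries. That spread may be biological or technical.

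MiRNAs of about 22 bases guide Argonaute proteins to mRNAs that pair with the seed, and lower their translation and stability. The miR-15/16 family is known for holding back the cell cycle: cyclin D1, cyclin E1, the kinases Cdk6 and Chek1 and the survival factor Bcl2 are among its targets. Its human locus with miR-15a and miR-16-1 is often deleted in chronic lymphocytic leukaemia, and in the mouse heart miR-195 is linked to the exit of muscle cells from the cell cycle after birth. The adrenal gland, whose cortex makes steroid hormones and whose medulla makes catecholamines, is still growing and remodelling in newborn mice.

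The mature sequences are shown because the shared seed defines the family and because near-identity decides which reads can be assigned to 1 gene. They are from RefSeq (GRCm38.p6, where all 4 genes matched), 5′ to 3′, with bases 2 to 8 in capitals.
mmu-miR-15a-5p: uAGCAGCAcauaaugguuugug
mmu-miR-15b-5p: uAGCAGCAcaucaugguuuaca
mmu-miR-195a-5p: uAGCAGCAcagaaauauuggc
mmu-miR-497a-5p: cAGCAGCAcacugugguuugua
mmu-miR-16-5p: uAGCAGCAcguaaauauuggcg
mmu-miR-322-5p: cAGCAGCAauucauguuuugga
mmu-miR-503-5p: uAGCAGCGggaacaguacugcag
The 5p arms of the 4 genes and those of miR-16 and miR-322 carry the same 7-base seed. The arm of miR-503 differs from it in the last base of the seed. After the seed the sequences part. miR-15a-5p and miR-15b-5p matched at 18 of 22 positions, and miR-195a-5p matched miR-16-5p at 19 of 21 and miR-15a-5p at 15 of 21. Counted from the 5′ end, miR-195a-5p differed from miR-16-5p by A10G and G11U. miR-497a-5p differed in its first base from the other 3 (U1C against miR-15a-5p).

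The opposite arms of the same hairpins, counted together with the 5p arms, have no seed in common. They are shown with the same bases in capitals.
mmu-miR-15a-3p: cAGGCCAUacugugcugccuca
mmu-miR-15b-3p: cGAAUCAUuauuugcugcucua
mmu-miR-195a-3p: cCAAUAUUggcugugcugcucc
mmu-miR-497a-3p: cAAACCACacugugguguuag
Reads were counted per hairpin gene, so how a count divides between the arms is not given. Apart from overlapping hairpins (Mir497b over Mir497), those of the 4 genes share no run of 18 bases with another miRNA hairpin. Their longest shared runs were 16 bases for Mir195a (with Mir195b), 13 for Mir15a and 12 for Mir15b and Mir497.

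The 4 genes come from 3 loci (positions in mm10). Mir15a is on the minus strand of chromosome 14 (61632027 to 61632110), inside an intron of the noncoding gene Dleu2, 54 bases from Mir16-1. Mir15b is on the plus strand of chromosome 3 (69009772 to 69009835), inside an intron of Smc4, which encodes a condensin subunit, 66 bases from Mir16-2. Mir497 (70234717 to 70234800) and Mir195a (70235042 to 70235135) lie 241 bases apart on the plus strand of chromosome 11, within no other gene of that strand in this annotation. Mir497b is annotated on the minus strand across the Mir497 hairpin.

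The libraries held 4960537 (replicate 1) and 4506482 (replicate 2) reads of miRNA genes, 42.4% and 39.9% of all reads. A further 25.9% and 27.8% mapped to several places and were counted for no gene. Mir375, a neuroendocrine miRNA taken here as the marker of the medulla, had 36380 and 41025 CPM (reads scaled to a total of 1000000 miRNA reads) in replicates 1 and 2. No miRNA was used as a marker of the cortex alone.

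Mir15a was the most abundant of the 4 genes in both libraries. It had 24867 reads in replicate 1 and 3999 in replicate 2, or 5013 CPM (95% Wilson interval 4951 to 5076) and 887 CPM (860 to 915). Its mean was 2950.2 CPM ± 2917 (SD, n = 2). Among the detected genes it stood at rank 37 in replicate 1 and rank 88 in replicate 2.

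Mir195a followed by its mean of 1882 CPM ± 2215 (SD, n = 2), but this order rests on 1 library. It had 17105 reads in replicate 1 and 1422 in replicate 2, or 3448 CPM (3397 to 3500) and 316 CPM (300 to 332). Its rank was 47 in replicate 1 and 135 in replicate 2. Replicate 2 was low for Mir195a to a greater degree than for any of the other 3 genes.

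Mir15b had 9634 reads in replicate 1 and 3054 in replicate 2. These are 1942 CPM (1904 to 1981) and 678 CPM (654 to 702), with a mean of 1310 CPM ± 894 (SD, n = 2). It was below Mir195a in replicate 1 and 2.15 times as high as Mir195a in replicate 2.

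Mir497 was the least abundant in both libraries, with 1967 reads in replicate 1 and 742 in replicate 2. Its level was 397 CPM (379 to 414) and 165 CPM (153 to 177), with a mean of 281 CPM ± 164 (SD, n = 2). A read of a miRNA library spans the whole mature molecule, so these levels were set side by side without scaling by length. The mature 5p arms are 21 or 22 bases long.

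**Figure D1:**
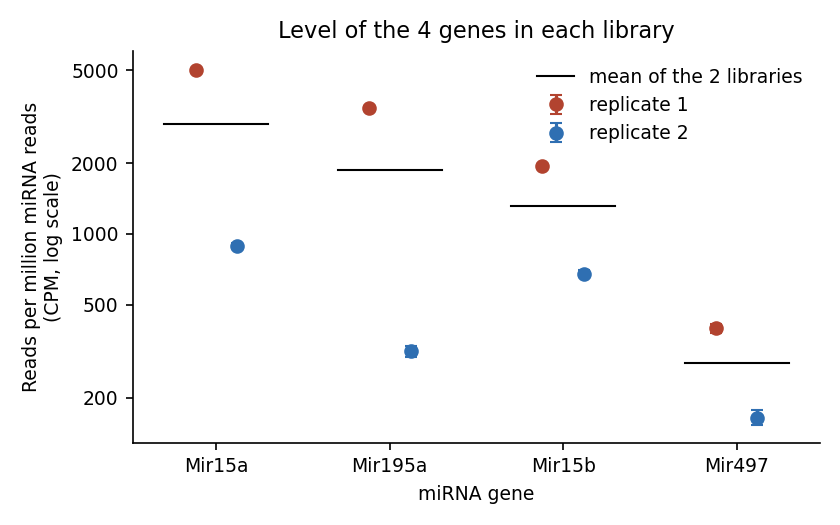
Level of each gene (CPM, log scale) in replicates 1 and 2, with 95% Wilson intervals for counting error and a line at the mean of the libraries. Each gene is higher in replicate 1, and Mir195a and Mir15b change places between the libraries.

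Within each library Mir15a was above Mir15b (2.58 times in replicate 1 and 1.31 times in replicate 2) and above Mir195a (1.45 and 2.81 times), whereas Mir15b and Mir195a changed places. Over the 2 libraries the ranges of these 3 genes overlap each other. The range of Mir497 (165 to 397 CPM) lies below those of Mir15a and Mir15b. It overlaps that of Mir195a (316 to 3448 CPM). Within each library Mir195a was above Mir497, 8.70 times in replicate 1 and 1.92 times in replicate 2.

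Together the 4 genes took 1.08% of the miRNA reads in replicate 1 and 0.205% in replicate 2, or 10800 and 2045 CPM. Mir15a made up a similar part of that sum in both libraries, 46.4% in replicate 1 and 43.4% in replicate 2. Mir195a made up 31.9% and 15.4%, Mir15b 17.98% and 33.1%, and Mir497 3.67% and 8.05%.

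All 4 genes had more reads in replicate 1 after scaling by TMM (trimmed mean of M values, which sets the bulk of genes level). The log2 ratio of replicate 1 over replicate 2 was 3.32 for Mir195a, a 9.98-fold difference (95% exact interval for counting error 9.45 to 10.5). It was 2.37 for Mir15a (5.16-fold, 4.99 to 5.34) and 1.39 for Mir15b (2.62-fold, 2.51 to 2.73). Mir497 had 1.14 (2.20-fold, 2.02 to 2.40).

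Thus 4 of 4 genes were at least 2-fold higher in replicate 1, where 45 of the 377 detected genes (11.9%) were and 24 (6.37%) were as far towards replicate 2. The choice of the 4 genes used this ratio, so nothing is read from the count. Over all detected genes the log2 ratio had a median of -0.04 and an SD of 0.97, and the 4 genes had a median of 1.88. By size of the ratio towards replicate 1, Mir195a stood at rank 7, Mir15a at 11, Mir15b at 26 and Mir497 at 35 of the 377. Among 103 other genes with mean levels between those of Mir497 and Mir15a, 11 were at least 2-fold higher in replicate 1 and 10 in replicate 2. The common biological coefficient of variation of these libraries, the spread between them beyond counting error, was 0.433. In tissue, a gene can be lower because fewer cells carry it or because each cell holds less of it, and the 2 cannot be told apart here.

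**Figure D2:**
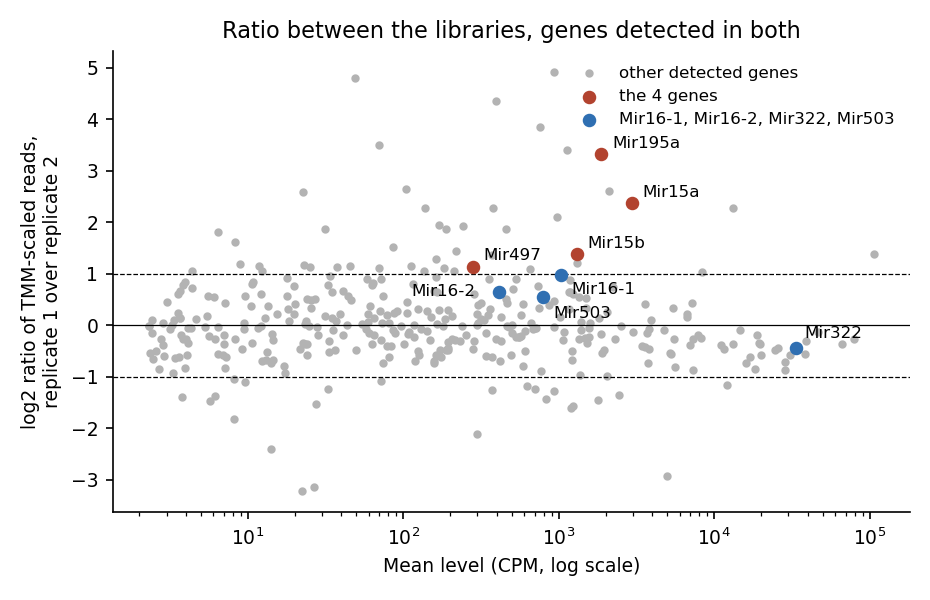
Log2 ratio of TMM-scaled reads, replicate 1 over replicate 2, against mean level (CPM, log scale) for the 377 genes detected in both libraries, with dashed lines at 2-fold. The 4 genes (red) lie between 1.14 and 3.32, and their relatives (blue) between -0.44 and 0.98. The highest of the relatives, Mir16-1, is just below the 2-fold line, and the side it falls on depends on the scaling.

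The neighbours Mir16-1 and Mir16-2 had lower ratios than the genes they lie beside. Mir16-1, beside Mir15a, had 7049 reads in replicate 1 and 2973 in replicate 2, and a log2 ratio of 0.98 (0.91 to 1.04). Mir16-2, beside Mir15b, had 2563 and 1363 reads and a ratio of 0.64 (0.55 to 0.74). Both encode the identical miR-16-5p, the best known member of the family. Reads of that arm that align equally to both loci were counted for neither, so the 2 counts are minimum values of uncertain make-up and the level of miR-16-5p itself is not measured.

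Within a locus, genes so close are usually cut from 1 primary transcript. The ratio of neighbours within each library is given here as a description. In the pairs of Mir15a and Mir15b the first gene was chosen with its ratio between the libraries known. In Mir195a over Mir497 both genes were. Mir322 over Mir503, shown in the figure, holds none of the 4 genes. Mir195a over Mir497, a pair free of runs shared with other loci, was 8.70 in replicate 1 (95% exact interval 8.30 to 9.12) and 1.92 in replicate 2 (1.75 to 2.10). Mir15a over Mir16-1 was 3.53 (3.44 to 3.62) and 1.35 (1.28 to 1.41). Mir15b over Mir16-2 was 3.76 (3.60 to 3.93) and 2.24 (2.10 to 2.39). In the pairs of Mir15a and Mir15b the second gene has the uncertain count described above. These are ratios of reads within 1 library, so scaling between libraries does not enter them, and no test against the spread between animals can be made with 2 libraries.

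**Figure D3:**
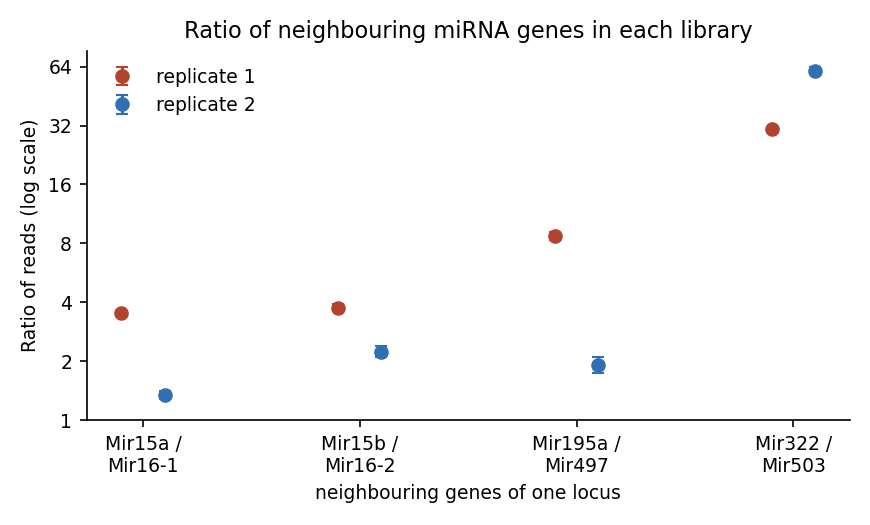
Ratio of reads of neighbouring miRNA genes within each library (log scale), with 95% exact intervals for counting error. The ratio is higher in replicate 1 for the pairs of Mir15a, Mir15b and Mir195a, and lower in replicate 1 for Mir322 over Mir503 (30.6 against 61.0).

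Mature sequences with the same seed were listed for 11 genes in RefSeq, the 4 genes and 7 others. Mir322, on the X chromosome and known in human as miR-424, had the most counted reads among them. It had 147484 reads in replicate 1 and 166447 in replicate 2, or 29732 and 36935 CPM, with a log2 ratio of -0.44 (-0.45 to -0.43). Mir503, its neighbour with the changed seed base, had 4824 and 2727 reads and a log2 ratio of 0.55 (0.49 to 0.62). Mir195b, Mir6342, Mir6353 and Mir6419 had 0 reads in both libraries, which allows a share of up to 6.05e-05% of the miRNA reads in replicate 1 and 6.66e-05% in replicate 2.

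All genes with the seed together took 4.25% of the miRNA reads in replicate 1 and 3.99% in replicate 2. After TMM scaling the log2 ratio of these sums was -0.04, so its sign turns with the scaling. Within this pool the 4 genes made up 25.4% in replicate 1 and 5.12% in replicate 2. Mir322 made up 70.0% and 92.5%. Mir16-1 and Mir16-2 made up 3.35% and 1.22% in replicate 1, and 1.65% and 0.757% in replicate 2. The sum over the seed, as counted, is thus mostly that of Mir322. Without Mir322 the remaining genes, the 4 included, took 1.27% in replicate 1 and 0.301% in replicate 2, a log2 ratio of 1.95 after TMM scaling. The 4 genes, chosen with their ratio known, hold 53573 of these 63185 reads in replicate 1 and 9217 of 13553 in replicate 2. Nothing about the family is therefore read from this ratio. The pool lacks the reads of miR-16-5p that map to both of its loci, so its shares hold for the counted reads only.

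**Figure D4:**
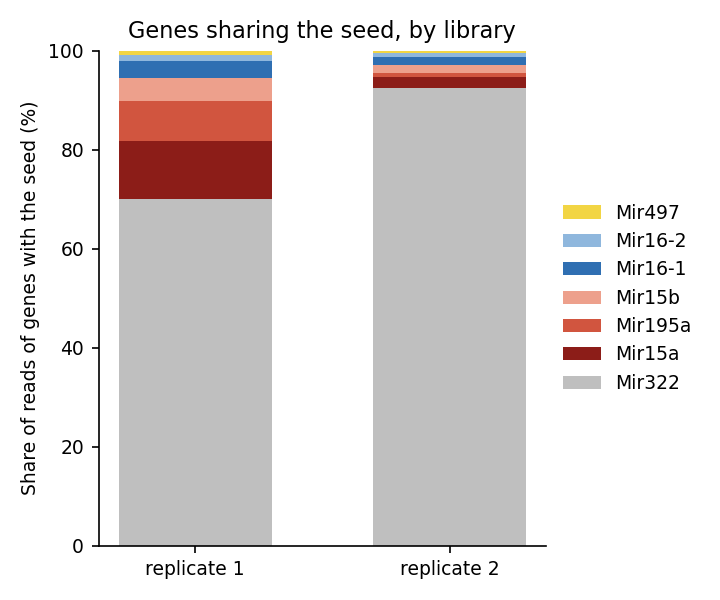
Share of each gene in the counted reads of all genes with the seed (%), stacked for replicate 1 and replicate 2. Reads of miR-16-5p that map to both of its loci are missing. Mir322 takes 70.0% in replicate 1 and 92.5% in replicate 2, and the 4 genes 25.4% and 5.12%.

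On the opposite strand the 4 genes had almost no reads. Mir497 had 1 read there in replicate 1 and 0 in replicate 2, and the other 3 had 0 in both. Mir497b, annotated on that strand, had 1 and 0 reads. A count that ignores strand held 0 reads for both Mir497 and Mir497b in either library, since the hairpins overlap. The values of Mir497 therefore exist in the strand-specific count alone.

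By distance of log2(CPM + 1) over the 2 libraries, the nearest genes to Mir15a were Mir214 (0.85) and Mir423 (1.15). Mir214, a miRNA of mesenchymal cells, was also nearest to Mir195a (0.78), followed by Mir301 (1.08). Mir15b was nearest to Mir196b (0.15), a miRNA of the Hox clusters, and Mir29a (0.36), a regulator of collagen mRNAs. Mir497 was nearest to Mir199b (0.40), whose hairpin shares runs with 2 others, and Mir25 (0.53). With 2 libraries this says only that the levels were alike. Mir214 had 18060 reads in replicate 1 and 2444 in replicate 2, and Mir301 had 10376 and 813.

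A list of other miRNAs linked to the cell cycle gave a count and a median near those of all genes. The list includes Mir322 and Mir503, the relatives described above. Of 36 such genes, all detected, 4 were at least 2-fold higher in replicate 1 (11.1% of the list, beside 11.9% of all detected genes) and 2 in replicate 2. Their median log2 ratio was -0.05, beside -0.04 over all detected genes. The hairpins of 15 of them share runs with others. Those higher in replicate 1 were Mir106b (1606 and 343 CPM in replicates 1 and 2), Mir25 (549 and 196), Mir24-2 (257 and 109) and Mir26a-2 (64.5 and 26.4). Mir93, which lies in 1 cluster with Mir106b and Mir25 and like Mir106b is a relative of the growth-promoting Mir17, had 2183 and 2406 CPM. Towards replicate 2 were Mir34c, whose transcription p53 drives (1021 and 2556 CPM), and Mir26a-1 (5.85 and 47.5 CPM). The list was led by Mirlet7g (75436 and 82434 CPM) and Mirlet7i (60498 and 71219 CPM), of a family that restrains proliferation. Mir24-2, Mir26a-1, Mir26a-2, Mirlet7g and Mirlet7i are among the 15 whose hairpins share runs, so their counts and ratios are uncertain.

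MiRNAs of other cell types differed between the same libraries. The 7 epithelial miRNAs summed to 4709 CPM (replicate 1) and 1165 CPM (replicate 2), and 6 of the 7 were at least 2-fold higher in replicate 1. The exception was Mir203, with 446 and 967 CPM. The 3 erythroid genes summed to 1059 and 287 CPM, with 2 of 3 past 2-fold and Mir486 higher in replicate 2 (20.4 and 27.7 CPM). The 5 kidney-enriched genes summed to 419 and 180 CPM, with 2 of the 4 detected past 2-fold. The 4 endothelial genes summed to 171355 and 75063 CPM, of which Mir126a was 156832 and 54709 CPM and the only one past 2-fold. Mir139 (14194 and 19981 CPM) and Mir221 (249 and 312 CPM) were higher in replicate 2, and the median log2 ratio of the list was -0.09.

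Of the 9 striated muscle miRNAs 3 were detected, and these were past 2-fold towards replicate 2. The list summed to 1250.5 and 8687 CPM as counted, nearly all of it Mir206 (1239 and 8627 CPM). The liver miRNA Mir122 had 1449 and 2638 CPM. The 6 neuroendocrine genes (40972 and 46324 CPM) and the 4 leukocyte genes found in the tables (1256 and 1554 CPM) held none past 2-fold. The 6 mesenchymal and smooth muscle genes summed to 30538 and 37711 CPM, with Mir214 past 2-fold in replicate 1 and Mir145a in replicate 2. The hairpins of 5 striated muscle, 3 kidney, 3 mesenchymal and smooth muscle and 2 neuroendocrine genes share runs with others. Reads of these that map to several places were counted for no gene, so their counts, and the sums with them, are minimum values. No gene of these 9 lists had 0 reads in both libraries. Their part in the ratios of Mir15a, Mir15b, Mir195a and Mir497 was not tested.

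**Figure D5:**
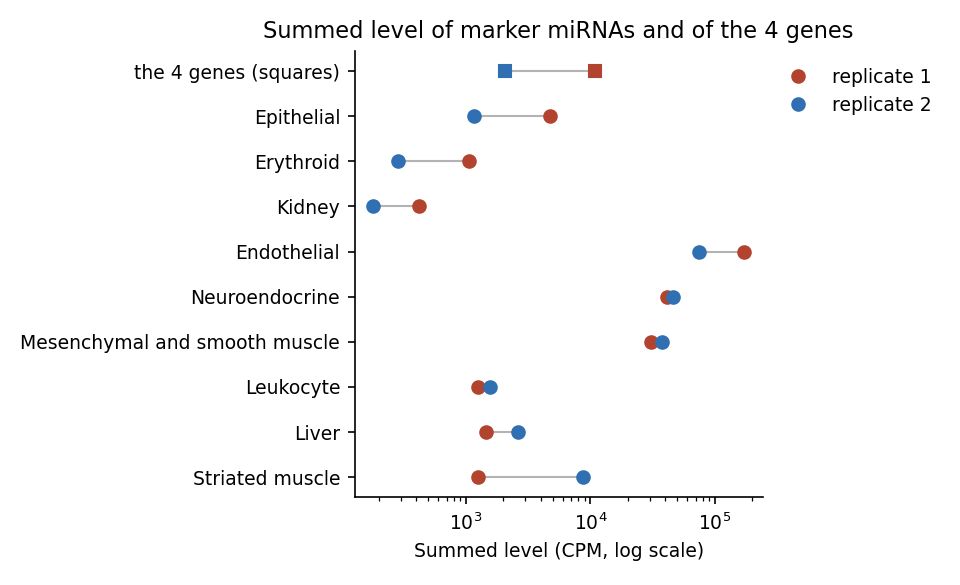
Summed level (CPM, log scale) of 9 lists of cell type miRNAs and of the 4 genes (squares) in replicate 1 (red) and replicate 2 (blue), ordered by their ratio. The 4 genes, at 10800 and 2045 CPM, have a higher sum in replicate 1, as have the epithelial, erythroid, kidney and endothelial lists, the last led by Mir126a. The sum of the striated muscle list, nearly all Mir206 as counted, lies at the other end.

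The GC share and length of the mature sequences, and the level, showed little relation to the ratio between the libraries. Other features of the sequences were not examined. Over 345 detected genes with a mature sequence in RefSeq, Spearman's rho of the log2 ratio was -0.05 with the mean GC share of the mature sequences and 0.05 with their mean length. Over all 377 it was -0.05 with the mean CPM. The genes share the same 2 libraries, so these values are a description. For the 5p arm alone, not the mean over arms used above, Mir15a and Mir15b have equal GC shares (40.9%). Mir195a has 42.9% and Mir497 a higher share.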

How the data were processed

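MiRNA sequencing reads of 2 libraries of 1 group were analysed. The authors deposited whole-number read counts per miRNA gene, without normalization. They used the mm10 assembly with GENCODE M21 genes, per the file headers. Which aligner and counter they used is not given in the sources used here. The tables have no header: the columns were read from their values as strandless counts, counts of the annotated strand (used here) and counts of the opposite strand. The 4 leading rows, which name no gene, stayed out of library sizes: unmapped reads (25.8% and 26.1% of all reads in replicates 1 and 2), reads at several places (25.9% and 27.8%), reads in no gene (5.96% and 6.24%) and ambiguous reads (0 on the annotated strand).

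CPM was taken over annotated-strand miRNA reads. Ratios used TMM factors of edgeR 4.0.16 over all genes (1.05 for replicate 1 and 0.956 for replicate 2). The dispersion came from an intercept-only fit of edgeR. Python 3.11.15 and scipy 1.17.1 gave Wilson intervals for levels and exact Clopper-Pearson intervals for ratios. Intervals and floors (3 counts) cover counting error only, since PCR reads are not independent molecules. The calculations of ratios and dispersion were run on simulated counts with known values. For the ratios these counts varied little beyond counting error, unlike those of the 2 libraries. That checks the calculation and not the values given here. No p-value was computed, since 2 libraries of 1 group allow none against the spread between animals. Hairpins were compared for shared runs of 18 bases, leaving out pairs that overlap in position. The genes described and all lists were chosen with earlier results of these data known. Named were the 4 genes, genes with their seed or within 10 kb on the same strand and the 2 nearest genes to each. From some lists the leading genes (at most 2) were named, and those past 2-fold where a result turned on them. The leading genes of the epithelial, erythroid, kidney and leukocyte lists were not named. Mir497b, Mir503, Mir93, Mir203, Mir486, Mir139 and Mir221 were named in addition, after their values were seen. Alternatives were other totals, DESeq2 1.42.0 size factors, total-read scaling, other read minimums and the count on either strand.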

Additional observations from a re-analysis of the deposited data

How the results depend on the processing

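All 4 genes stayed at least 2-fold higher in replicate 1 under each scaling tried. Mir16-1, just below 2-fold in the main scaling (log2 ratio 0.98), passed it with total reads, DESeq2 size factors or TMM over detected genes. Scaling by total miRNA reads raised each log2 ratio by 0.13, to 2.50 for Mir15a, 1.52 for Mir15b, 3.45 for Mir195a and 1.27 for Mir497. DESeq2 size factors gave 2.43 for Mir15a and 1.45 for Mir15b, and TMM over detected genes (added after seeing the data) gave 2.45, 1.47 and, for Mir195a, 3.40. Without a read minimum 186 of 831 genes (22.4%) were at least 2-fold higher in replicate 1 and 160 in replicate 2. With at least 100 reads in both libraries, 33 of 266 (12.4%) were higher in replicate 1 and 14 in replicate 2. These settings change the number of genes kept. The coefficient of variation was 0.463 with a mean of at least 10 reads and 0.424 with at least 100 in both libraries. Counted on either strand, Mir497 had 0 CPM, because its hairpin overlaps Mir497b, and neither its ratio nor that of Mir195a over Mir497 can be had. Leaving out 1 library moved the place of Mir195a and of Mir15b in the order of levels between 2 and 3. A leave-out for the 2-fold counts was not run, as 1 library gives no ratio. No paired analysis was possible because the series holds 1 group. Depth did not limit the 4 genes, whose lowest count was 742 reads.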
